A study of Homo sapiens with 18 samples.

Results

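The aryl hydrocarbon receptor pathway was described here through 8 of the 60676 genes in the expression table. They were the receptor AHR, its partner ARNT, its repressor AHRR and 5 classic target genes (CYP1A1, CYP1A2, CYP1B1, TIPARP and NQO1), found by the gene symbols of their Ensembl identifiers. The genes were chosen by the measured level of CYP1A1 in MDA-MB-468 cells, already known to be far lower after treatment, so every value of that treatment contrast in MDA-MB-468 cells is given as a description, with no p-value. RNA-seq libraries came from 3 human triple-negative breast cancer cell lines. MDA-MB-231, MDA-MB-468 and BT20 cells each gave 3 libraries of cells treated with 20 mM nicotinamide (NAM, the amide form of vitamin B3) for 48 h and 3 control libraries of cells without NAM, 18 libraries in 6 groups. MDA-MB-231 and MDA-MB-468 cells were kept in DMEM and BT20 cells in RPMI, so a difference between BT20 and another line cannot be told apart from the medium. Control RNA is labelled untreated and described as isolated before the treatment, so the time in culture cannot be told apart from NAM.

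As background, AHR is a transcription factor of the bHLH-PAS family that is held in the cytoplasm by a chaperone complex until it binds a small aromatic ligand, such as dioxin, a polycyclic aromatic hydrocarbon, or a tryptophan product of the kynurenine pathway. It then enters the nucleus, pairs with ARNT and binds xenobiotic response elements, whose core letters are GCGTG, near the genes it induces. CYP1A1 is the most widely used readout of the active receptor, while AHRR and TIPARP are induced targets that in turn restrain it. In breast tissue, CYP1A1 and CYP1B1 also oxidise estradiol.

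The total was 10864143 to 21755168 reads per library, recovered from the deposited values, and the median was 16640628. In MDA-MB-231 and MDA-MB-468 cells, both libraries numbered replicate 1 stood apart from the others of their line on a principal component holding 57.9% and 34.5% of the variance, so results that rest on them are also given without them. PGR was at 0 in every library, ESR1 reached at most 1.87 FPKM (read fragments scaled to the length of the gene and the depth of the library) and ERBB2 lay between 8.70 and 31.7 FPKM. The 5 epithelial markers summed to 1061 to 1261 FPKM in NAM-treated and 1211 to 1295 in control MDA-MB-468 cells, and to 1096 to 1393 in NAM-treated and 1563 to 1811 in control BT20 cells. In MDA-MB-231 cells they summed to 194 to 438 FPKM with NAM and 305 to 466 in controls, with CDH1 under 1 FPKM in every library. All 4 blood markers were under 1 FPKM in all 18 libraries. The endothelial marker CDH5 was at 4.01 to 8.53 FPKM in NAM-treated and 12.9 to 23.6 FPKM in control BT20 cells, while PECAM1 and VWF did not exceed 1.15 FPKM anywhere, and the part of this difference in the results for BT20 cells was not tested. Of 4 fibroblast markers, PDGFRB was above 1 FPKM in MDA-MB-231 cells alone, at 2.28 to 2.78 FPKM with NAM and 3.15 to 4.65 FPKM in controls.

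The upstream sequences of CYP1A1 and TIPARP are shown because CYP1A1 had the widest range of levels among the 8 genes and TIPARP, another induced target, did not follow it. Sequences and start sites are those of RefSeq on GRCh38 (hg38), written 5′ to 3′ on the strand of the gene, and capitals mark each GCGTG core or its reverse complement CACGC. The CYP1A1 gene (ENSG00000140465) lies on the minus strand of chromosome 15, at 74719542 to 74725536. The first CYP1A1 stretch (chr15:74726404-74726643, minus strand) runs 1115 to 876 bases before the start and holds 4 cores. It was chosen as a stretch of 240 bases with the most cores in the 1500 bases before the start. The second (chr15:74725529-74725778, minus strand) is the 250 bases just before the start and holds 1. The TIPARP stretch (chr3:156674340-156674589, plus strand) is the 250 bases before the first of 3 start sites and holds 2. The windows from 250 bases before to 50 after its later starts each held 0.
CYP1A1, 1115 to 876 bases before the start: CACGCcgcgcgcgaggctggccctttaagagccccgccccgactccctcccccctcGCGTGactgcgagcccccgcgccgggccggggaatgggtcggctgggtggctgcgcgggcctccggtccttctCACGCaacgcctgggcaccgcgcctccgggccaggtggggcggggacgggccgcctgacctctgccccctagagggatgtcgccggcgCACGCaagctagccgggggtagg
CYP1A1, 250 bases before the start: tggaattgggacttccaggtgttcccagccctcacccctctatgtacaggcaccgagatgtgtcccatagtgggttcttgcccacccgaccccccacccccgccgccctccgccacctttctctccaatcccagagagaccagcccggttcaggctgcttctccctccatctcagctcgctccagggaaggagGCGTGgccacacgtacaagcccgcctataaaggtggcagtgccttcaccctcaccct
TIPARP, 250 bases before the first start: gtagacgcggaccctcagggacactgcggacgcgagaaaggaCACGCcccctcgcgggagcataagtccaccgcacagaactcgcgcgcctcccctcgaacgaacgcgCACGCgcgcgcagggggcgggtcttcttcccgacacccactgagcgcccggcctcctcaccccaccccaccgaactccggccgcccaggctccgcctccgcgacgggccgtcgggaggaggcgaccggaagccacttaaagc

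Counted on both strands over the 1500 bases before the start, CYP1A1 had 10 cores, at positions -57, -400, -503, -898, -986, -1059, -1115, -1204, -1260 and -1385, counted in bases from the start. That many or more were found in 221 of 35116 such windows over all genes, or 0.629%. Of the windows, 72.9% held at least 1 core, and the median was 1. TIPARP had 6, 6 and 2 cores before its 3 starts, AHRR had 4 and 8 before its 2 starts, ARNT had 5, NQO1 had 2, CYP1A2 had 1 and AHR had 0. As many as 6 cores were found in 5.90% of windows and as many as 8 in 1.80%. The longer form of the element, TNGCGTG on either strand, whose matches overlap those of the core, occurred 5 times before CYP1A1, 2 times before ARNT and at most once before the others. It occurred in 23.2% of all windows, and 5 or more times in 8 of them (0.0228%). The antioxidant response element TGACNNNGC, searched on both strands, was found once before NQO1, ARNT and the first start of AHRR, and in 42.7% of all windows. Promoters were matched for 7 of the 8 genes, all but CYP1B1. A match of letters is a description of the window and no measure of binding.

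**Figure D1:**
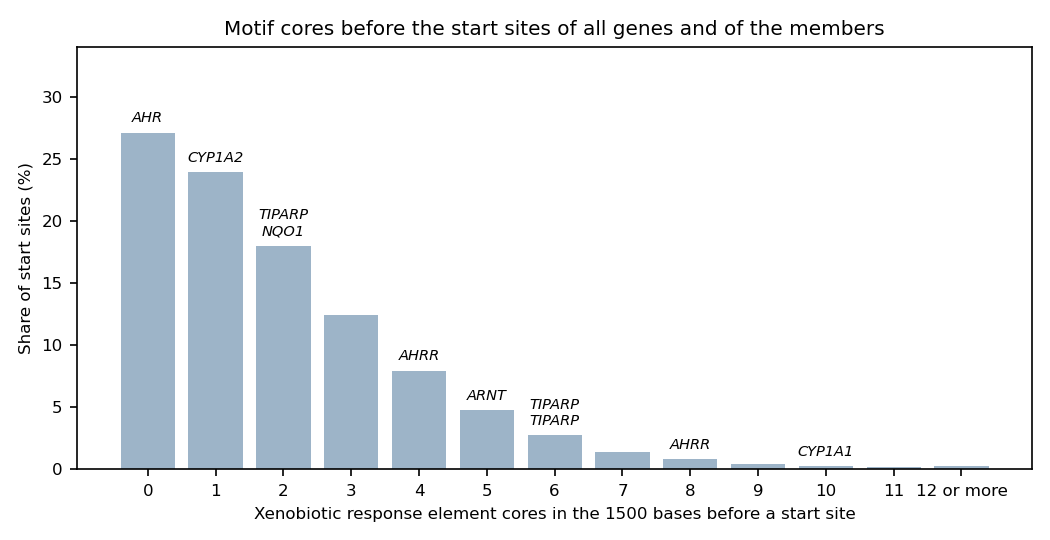
Bars give the share of 35116 RefSeq start sites, in percent (y axis), that hold each number of GCGTG cores on either strand in the 1500 bases before them (x axis). The names above the bars are the genes described, 1 name for each start site, with CYP1A1 at 10 cores where the median start site has 1.

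Levels of the receptor were highest in MDA-MB-468 cells, and AHR was called higher with NAM in BT20 cells. AHR (ENSG00000106546, chr7:16916359-17346152, plus strand) was at 7.63, 7.05 and 8.65 FPKM in NAM-treated BT20 cells, against 3.05, 2.74 and 2.51 FPKM in BT20 controls. The groups did not overlap, and the mean was 7.78 ± 0.813 FPKM with NAM against 2.77 ± 0.269 in controls (SD, n = 3 each), 2.81-fold higher. In bulk RNA, fewer cells holding a transcript and less of it per cell cannot be told apart. On quantile-normalised log2(FPKM + 1) values, the scale of every log2 difference below, which understates the change of low genes, AHR rose by 1.18 (SE 0.15) in BT20 cells (limma, adjusted p = 0.00338). It kept this call without any one library, with adjusted p up to 0.0226. In MDA-MB-468 cells AHR was at 31.3, 11.4 and 14.7 FPKM with NAM and at 18.2, 7.43 and 10.1 FPKM in controls. Replicate 1 was high in both groups, which overlapped, and each NAM library exceeded the control of its own number by 1.45- to 1.72-fold. The log2 difference was 0.59 (SE 0.41). In MDA-MB-231 cells the values were 7.28, 8.31 and 6.51 FPKM with NAM and 7.05, 4.72 and 4.48 FPKM in controls. Each NAM library was again above the control of its number, by 1.03- to 1.76-fold, but the groups overlapped and the difference of 0.33 (SE 0.24) did not pass the test (adjusted p = 0.504). An antisense RNA over the AHR locus was at most 3.01 FPKM. It averaged 0.697 FPKM in NAM-treated and 0.261 FPKM in control BT20 cells, and its part in the AHR reading was not tested, since the strand setting of the counting is not given in the sources used here.

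ARNT (ENSG00000143437, chr1:150809713-150876708, minus strand), which AHR needs to bind DNA and which also pairs with the hypoxia factors, was at like levels in most groups. It was at 4.67, 8.08 and 8.51 FPKM in NAM-treated and 4.81, 7.94 and 8.17 FPKM in control MDA-MB-231 cells, where both libraries of replicate 1 were low. The log2 difference there was -0.04 (SE 0.21, adjusted p = 0.944). In BT20 cells ARNT was at 9.93, 12.1 and 9.49 FPKM with NAM and at 8.28, 10.98 and 11.3 FPKM in controls, and the difference was 0.03 (SE 0.17, adjusted p = 0.930). In MDA-MB-468 cells it was at 6.65, 7.16 and 6.80 FPKM with NAM and at 7.23, 8.76 and 9.77 FPKM in controls. These groups did not overlap, ARNT was 1.25-fold lower with NAM, and the log2 difference was -0.31 (SE 0.17).

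AHRR (ENSG00000063438, chr5:321714-438291, plus strand), the repressor that competes with AHR for ARNT, was barely detected. It did not exceed 0.255 FPKM in any library, and 102 reads fell on it in all 18. The NAM libraries held 5 reads and the controls 12 in MDA-MB-231 cells, 13 and 5 in MDA-MB-468 cells, and 31 and 36 in BT20 cells. The ratio of control to NAM reads, set against the totals, had exact 95% intervals of 0.799 to 8.83, 0.115 to 1.23 and 0.761 to 2.12 in these 3 lines, so a change in AHRR was not detectable at this depth. Such intervals cover counting error only. A readthrough gene shares the AHRR locus and was not used here.

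CYP1A1, a cytochrome P450 of the first family, showed the widest range of the 8 genes. In MDA-MB-468 cells it was at 1.16, 2.31 and 1.80 FPKM with NAM, against 104, 73.5 and 68.4 FPKM in controls. Every control library was at least 31.8 times, and up to 89.9 times, its NAM counterpart of the same number. In reads, 284 fell on CYP1A1 in the 3 NAM libraries and 11630 in the controls. In MDA-MB-231 cells CYP1A1 was at 0.493, 0.515 and 0.622 FPKM with NAM, against 3.79, 4.49 and 5.301 FPKM in controls. The groups lay far apart, with means of 0.543 ± 0.0688 and 4.53 ± 0.758 FPKM (SD, n = 3 each), 8.33-fold lower with NAM. CYP1A1 fell by 1.99 on the log2 scale (SE 0.19; limma, adjusted p = 0.0136, and 0.00683 with the replicate block). The gene passed the filter on low values there only through the controls, in which it is high, and with no filter the adjusted p was 0.00626. Without MDA-MB-231 control replicate 1, 2 or 3 it was below the filter and not tested, and without NAM replicate 2 or 3 the adjusted p was 0.0892 or 0.156. In BT20 cells CYP1A1 was at 0.0864, 0.0821 and 0.188 FPKM with NAM, against 0.276, 1.06 and 1.26 FPKM in controls. Here too all NAM libraries were below all controls, with 21 reads against 147, and the means were 0.119 ± 0.0599 and 0.865 ± 0.521 FPKM (SD, n = 3 each). CYP1A1 was below the filter in BT20 cells, and without a filter the log2 difference was -0.71 (SE 0.22, limma, adjusted p = 0.155).

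Set on reads rather than on log2(FPKM + 1), the CYP1A1 differences in MDA-MB-231 and BT20 cells had overlapping intervals. The control to NAM ratio of CYP1A1 reads, relative to all reads, was 8.37 (exact 95% interval 6.75 to 10.5) in MDA-MB-231 cells and 7.63 (4.81 to 12.7) in BT20 cells. In MDA-MB-468 cells it was 43.9 (39.0 to 49.6), given as a description, and the FPKM ratios of its numbered pairs spread more widely than this interval. With NAM the level of CYP1A1 still differed between the lines, with means of 0.543 FPKM in MDA-MB-231, 1.75 FPKM in MDA-MB-468 and 0.119 FPKM in BT20 cells.

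CYP1A2 (ENSG00000140505, chr15:74748845-74756607, plus strand), the neighbour of CYP1A1 at a distance of 23308 bases and chiefly a liver enzyme, had 22 reads in all 18 libraries. Of these, 1 fell in NAM-treated and 19 in control MDA-MB-468 cells, a control to NAM ratio of 20.4 with an exact 95% interval of 3.24 to 846. This interval covers counting error only, not the spread between libraries, and is given as a description. MDA-MB-231 cells had 1 read with NAM and 0 in controls, and BT20 cells had 0 with NAM and 1 in controls.

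CYP1B1 (ENSG00000138061, chr2:38066973-38109902, minus strand), a P450 that hydroxylates estradiol and is expressed in many tissues outside the liver, was lower with NAM in all 3 lines. In MDA-MB-231 cells it was at 5.74, 10.6 and 7.23 FPKM with NAM, against 24.1, 22.5 and 21.3 FPKM in controls. The lowest control was above the highest NAM library by a wide margin, and the mean was 2.88-fold lower with NAM. CYP1B1 fell by 1.47 (SE 0.19) in this line (limma, adjusted p = 0.0234, and 0.00989 with the replicate block). The call was lost without MDA-MB-231 control replicate 1, 2 or 3 (adjusted p = 0.0613, 0.181 and 0.177) and without NAM replicate 2 or 3 (0.0826 and 0.186). In BT20 cells CYP1B1 was at 9.03, 8.07 and 7.94 FPKM with NAM, against 18.9, 24.5 and 23.4 FPKM in controls. These groups did not overlap either, the mean was 2.67-fold lower with NAM, and CYP1B1 fell by 1.31 (SE 0.16; limma, adjusted p = 0.00329, at most 0.0209 without any one library). In MDA-MB-468 cells it was at 42.1, 17.3 and 20.0 FPKM with NAM and at 92.0, 47.3 and 55.0 FPKM in controls. Replicate 1 was high in both groups, which still did not overlap, and each NAM library was 2.19- to 2.75-fold below the control of its number. The antisense gene CYP1B1-AS1 overlaps CYP1B1 and was also lower with NAM, with means of 1.15 against 2.29 FPKM in MDA-MB-231, 2.85 against 7.01 in MDA-MB-468 and 0.925 against 2.26 in BT20 cells. Whether reads of one were counted for the other was not tested.

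TIPARP (ENSG00000163659, chr3:156673235-156706770, plus strand), an ADP-ribosyltransferase that modifies AHR and limits its activity, did not move in one direction. In MDA-MB-231 cells it was at 3.797, 8.55 and 8.20 FPKM with NAM and at 6.68, 14.4 and 14.4 FPKM in controls. Replicate 1 was low in both groups, so the groups overlapped, but each NAM library was 1.69- to 1.76-fold below the control of its number. The log2 difference of -0.76 did not pass the test without pairing (SE 0.31, limma, adjusted p = 0.245), and it did with the replicate block (SE 0.11, adjusted p = 0.0149) and without both replicate 1 libraries (-0.79, adjusted p = 0.00583). In MDA-MB-468 cells TIPARP was at 6.40, 4.13 and 4.58 FPKM with NAM and at 4.48, 2.72 and 3.52 FPKM in controls, higher with NAM in each numbered pair by 1.30- to 1.52-fold, with overlapping groups. In BT20 cells it was at 10.9, 16.7 and 16.5 FPKM with NAM and at 15.9, 19.6 and 18.7 FPKM in controls, which overlapped (-0.30, SE 0.19, adjusted p = 0.312).

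NQO1 (ENSG00000181019, chr16:69706996-69726668, minus strand), a quinone reductase that answers to NRF2 as well as to AHR, had the highest FPKM of the 8 genes in every library. In MDA-MB-468 cells NQO1 was at 160, 174 and 185 FPKM with NAM and at 123, 90.2 and 116 FPKM in controls. All NAM libraries were above all controls, by 1.58-fold in the mean, and the log2 difference was 0.64 (SE 0.17), opposite in sign to CYP1A1. In BT20 cells it was at 667, 784 and 559 FPKM with NAM and at 804, 680 and 733 FPKM in controls, overlapping groups with a difference of -0.08 (SE 0.16, adjusted p = 0.765). In MDA-MB-231 cells it was at 91.8, 61.7 and 66.0 FPKM with NAM and at 103, 67.6 and 69.9 FPKM in controls. Each NAM library was slightly below its control there, by 1.06- to 1.13-fold, and the difference of -0.10 (SE 0.16) did not pass the test (adjusted p = 0.789). An antisense RNA inside NQO1 (ENSG00000261602) had levels near those of NQO1 in each line, at 585 to 931 FPKM in NAM-treated and 744 to 768 FPKM in control BT20 cells. In MDA-MB-468 cells it was at 71.4, 83.6 and 82.9 FPKM with NAM and at 57.5, 40.4 and 64.4 FPKM in controls. How reads were shared between both genes was not tested.

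**Figure D2:**
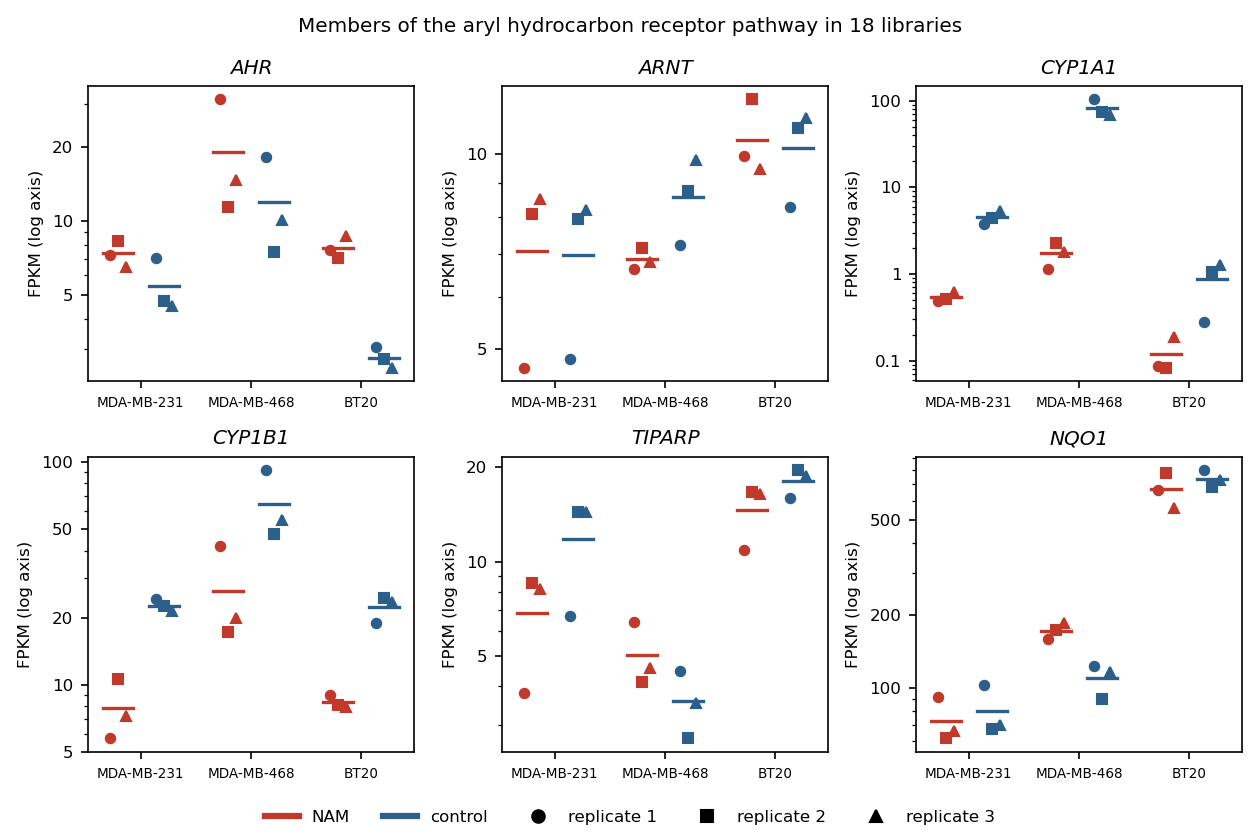
Each panel gives 1 gene as FPKM on a log axis (y axis) in the 3 lines (x axis), red for NAM and blue for control, with a symbol for each replicate and a line at the mean of 3 libraries. CYP1A1 lies at 1.16 to 2.31 FPKM in NAM-treated and 68.4 to 104 FPKM in control MDA-MB-468 cells, and the CYP1B1 groups do not overlap in any line.

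In MDA-MB-231 cells CYP1B1 was called lower (adjusted p under 0.05 and a log2 difference beyond 0.58) among 5 genes tested, where 1.92% of all 13869 genes were called (1.09% lower). CYP1A1, which entered that test only through its controls, is left out of this count. With the replicate block TIPARP was called as well, in a fit that called 15.9% of all genes. In BT20 cells AHR was called higher and CYP1B1 lower among 5 tested, beside 15.2% of all genes (7.12% higher and 8.13% lower). In MDA-MB-468 cells CYP1A1 was past both thresholds among 6, where 8.87% of all genes were. With the replicate block these were 4 genes (AHR, CYP1A1, CYP1B1 and NQO1), beside 15.3% of all genes, and nothing is read from these counts because the contrast was known. Groups without overlap, lower with NAM, were seen for CYP1A1 and CYP1B1 in all 3 lines, beside 10.4% of all genes tested in MDA-MB-231, 13.4% in MDA-MB-468 and 18.3% in BT20 cells, where CYP1A1 itself was below the filter. Groups without overlap, higher with NAM, were seen for NQO1 in MDA-MB-468 cells, beside 16.2% of all genes, and for AHR in BT20 cells, beside 21.0%. In MDA-MB-468 cells ARNT was lower without overlap as well, as was CYP1A2, while AHRR was higher, and both CYP1A2 and AHRR were below the filter. The nominal smallest p of an exact test of 3 against 3 libraries is 0.1, so single genes were tested in the fit across all genes alone. The labels do not say that replicates were separate cultures, so the p-values measure the spread between these libraries.

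**Figure D3:**
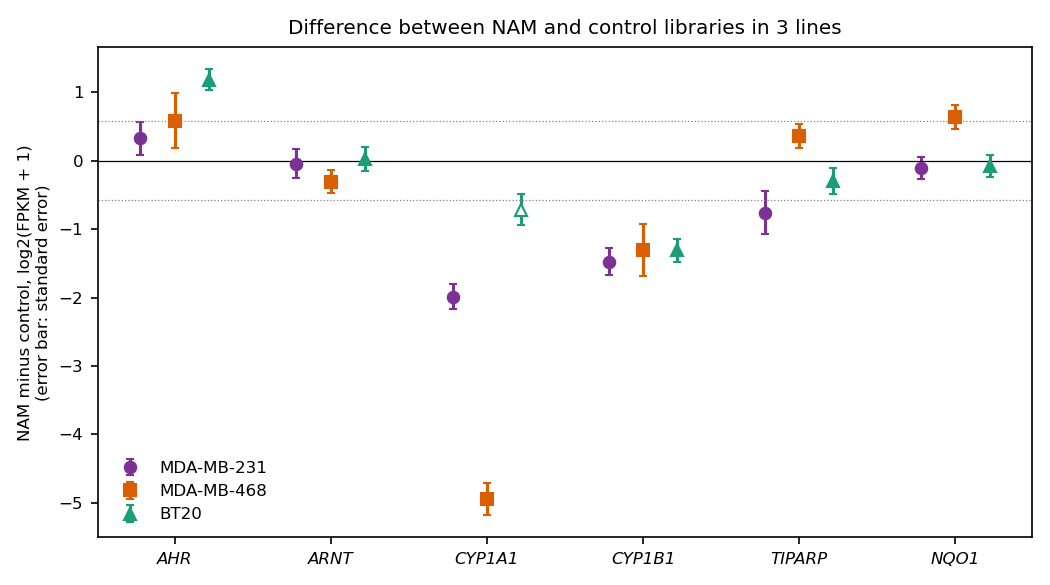
Points give NAM minus control on quantile-normalised log2(FPKM + 1) (y axis) for 6 genes (x axis) in the 3 lines, with bars of 1 SE, dotted lines at -0.58 and 0.58, and an open point where the gene was below the filter and was fitted without it. CYP1A1 lies at -1.99 in MDA-MB-231, -4.95 in MDA-MB-468 and -0.71 (open) in BT20 cells, and CYP1B1 lies between -1.47 and -1.31.

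Whether the NAM effect differed between MDA-MB-231 and BT20 cells was tested in 1 fit of all 18 libraries. The effect on CYP1A1 was lower in MDA-MB-231 cells by 1.20 (interaction -1.20, SE 0.30, limma, adjusted p = 0.0278). CYP1A1 was below the filter in BT20 cells alone and passed it here only through the other lines, so it is left out of the count. No other member was called, where 5.32% of all genes were. The CYP1A1 call rests on the log2(FPKM + 1) scale. It was lost with a pseudocount of 0.1 (-0.69, adjusted p = 0.545), a pseudocount of 0.5 (-1.22, adjusted p = 0.0777) and limma-voom on the recovered reads (-0.38, adjusted p = 0.831). It was also lost without BT20 control replicate 1 (adjusted p = 0.0667), BT20 NAM replicate 3 (0.0652), MDA-MB-231 control replicate 2 or 3 (0.0680 and 0.0876) or MDA-MB-231 NAM replicate 2 or 3 (0.0519 and 0.0621). For AHR the NAM effect in MDA-MB-231 minus that in BT20 cells was -0.93 (SE 0.45, adjusted p = 0.256), and for CYP1B1 it differed by -0.04 (SE 0.41, adjusted p = 0.973). Described without a test, the NAM effect in MDA-MB-468 minus that in BT20 cells was -4.32 (SE 0.30) for CYP1A1, 0.71 (SE 0.20) for NQO1 and 0.68 (SE 0.34) for TIPARP, in a contrast where 5.39% of all genes were past the thresholds. The effect in MDA-MB-231 minus that in MDA-MB-468 cells was 3.13 (SE 0.30) for CYP1A1, -0.75 (SE 0.20) for NQO1 and -1.09 (SE 0.34) for TIPARP, where 4.83% of all genes were. These contrasts share libraries and are not independent of each other.

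Between the untreated lines the 8 genes did not follow 1 order. MDA-MB-468 controls had the highest AHR, CYP1A1 and CYP1B1 and the lowest TIPARP, while BT20 controls had the highest NQO1 and TIPARP and the lowest AHR and CYP1A1. Against BT20 controls, AHR was 4.31-fold higher in MDA-MB-468 controls (log2 1.83, SE 0.28, limma, adjusted p = 0.000486) and CYP1B1 was 2.91-fold higher (1.42, SE 0.23, adjusted p = 0.000586). TIPARP was 5.06-fold lower in MDA-MB-468 than in BT20 controls (-2.09, SE 0.23, adjusted p = 5.71e-05), and NQO1 was 6.73-fold lower (-2.76, SE 0.15, adjusted p = 6.25e-07). CYP1A1 was 94.7-fold higher in MDA-MB-468 than in BT20 controls, given with no p. CYP1A1 is left out of the count in this contrast, since its level in MDA-MB-468 cells was known. AHR, CYP1B1, TIPARP and NQO1 were called, where 46.6% of all genes were, and ARNT was not (-0.19, SE 0.19, adjusted p = 0.418).

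CYP1A1 was 5.23-fold higher in MDA-MB-231 than in BT20 controls (1.90, SE 0.22, limma, adjusted p = 5.47e-05), and NQO1 was 9.21-fold lower (-3.22, SE 0.15, adjusted p = 1.5e-07). AHR was 1.96-fold higher (0.99, SE 0.28, adjusted p = 0.0144), a call that was lost without BT20 control replicate 2 (adjusted p = 0.0611) or 3 (0.0661). CYP1B1 was level in these lines, 1.02-fold apart (0.05, SE 0.23, adjusted p = 0.864), and TIPARP did not pass the test (-0.55, SE 0.23, adjusted p = 0.0690). Thus 3 of 6 were called, beside 50.1% of all genes. Against MDA-MB-468 controls, MDA-MB-231 controls had 2.86-fold less CYP1B1 (-1.37, SE 0.23, adjusted p = 0.000733) and 3.31-fold more TIPARP (1.54, SE 0.23, adjusted p = 0.000390). AHR was 2.202-fold lower in MDA-MB-231 (-0.85, SE 0.28, adjusted p = 0.0299). That call was lost without MDA-MB-468 control replicate 1 (adjusted p = 0.0585), MDA-MB-231 control replicate 2 (0.104) or 3 (0.1097), and with no filter (0.0765). CYP1A1 was 18.1-fold lower, given with no p. NQO1 was -0.46 (SE 0.15, adjusted p = 0.0286) on the log2 scale, short of the 0.58 required, and without MDA-MB-468 control replicate 2 it was -0.62 and called. With CYP1A1 left out here too, AHR, CYP1B1 and TIPARP were called in this contrast, beside 46.4% of all genes. The order of CYP1A1 in controls, MDA-MB-468 above MDA-MB-231 above BT20, was thus not the order of NQO1 or TIPARP.

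**Figure D4:**
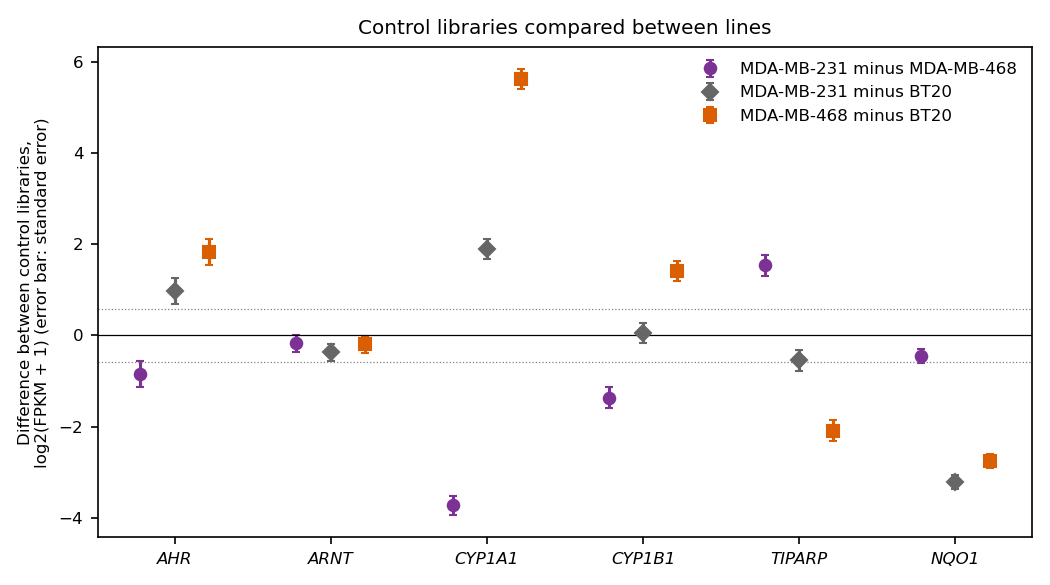
Points give the difference between the controls of 2 lines on quantile-normalised log2(FPKM + 1) (y axis) for 6 genes (x axis), with bars of 1 SE and dotted lines at -0.58 and 0.58. CYP1A1 lies at 5.63 for MDA-MB-468 minus BT20, and NQO1 at -2.76 and -3.22 for MDA-MB-468 minus BT20 and MDA-MB-231 minus BT20.

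Other genes of the pathway were described in 5 textbook lists. The first list was the complex that holds AHR and its coactivators (HSP90AA1, HSP90AB1, PTGES3, NCOA1, NCOA2, NCOA3, CREBBP, EP300 and NRIP1). All 9 were tested. In MDA-MB-231 cells 0 were called (limma, and 0 at an unadjusted p under 0.05 and 0 by limma-voom), beside 1.92% of all genes. The median log2 difference there was -0.19 beside -0.01 over all genes. In MDA-MB-468 cells 0 passed the thresholds, beside 8.87% of all genes, with a median of -0.10 beside 0.02. In BT20 cells, where 15.2% of all genes were called, the coactivator NCOA3 rose by 0.71 (SE 0.20, adjusted p = 0.0428), and the median was 0.02 beside 0.02. With 9 genes, nothing is read from these counts. NCOA3 lost its call without each BT20 library but NAM replicate 1, with adjusted p between 0.0626 and 0.153.

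Among 11 relatives and other partners of ARNT, 6 were tested in each line. ARNT2, a close relative of ARNT, was at 3.13, 4.92 and 5.16 FPKM in NAM-treated and 11.4, 14.8 and 14.8 FPKM in control MDA-MB-231 cells, and every NAM library was below every control. It fell by 1.52 (SE 0.16, limma, adjusted p = 0.0166), and the call was lost without MDA-MB-231 control replicate 2 or 3 (adjusted p = 0.161 and 0.169) or NAM replicate 2 or 3 (0.0911 and 0.156). ARNT2 was under 0.124 FPKM in all libraries of the other 2 lines. In BT20 cells the clock factor BMAL2 rose by 0.69 (SE 0.20, adjusted p = 0.0437), a call lost without BT20 control replicate 1, 2 or 3 (0.0889, 0.207 and 0.208), with no filter (0.134) and under median scaling (0.0521). BMAL2 averaged 1.58 FPKM in NAM-treated and 0.601 FPKM in control BT20 cells. It thus passed the filter there only through the NAM libraries, in which it is high. In MDA-MB-468 cells BMAL2 was at 2.81, 2.54 and 2.70 FPKM with NAM and 1.20, 0.695 and 0.790 FPKM in controls. The list's medians were -0.05, -0.05 and 0.06 in MDA-MB-231, MDA-MB-468 and BT20 cells.

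The third list held 12 enzymes that make or use up products of the kynurenine pathway, some of which are AHR ligands. Of these, IDO1 and TDO2, which start the pathway, did not exceed 0.978 and 0.103 FPKM. Both were thus below the filter in every line. IDO1 averaged 0.0603 FPKM in NAM-treated and 0.796 FPKM in control MDA-MB-468 cells. With NAM and in controls it averaged 0.0475 and 0.150 FPKM in MDA-MB-231 cells, and 0.0537 and 0.0322 FPKM in BT20 cells. In MDA-MB-231 cells 3 were tested and 0 called (limma, and 0 at an unadjusted p under 0.05 and 0 by limma-voom), beside 1.92% of all genes called. In BT20 cells 4 were tested and 0 called (0 unadjusted and 0 by limma-voom), beside 15.2% of all genes. With so few genes, nothing is read from these counts. In MDA-MB-468 cells 5 were tested, and KYNU, which cleaves kynurenine, was at 6.79, 4.22 and 4.90 FPKM with NAM and 18.5, 8.13 and 10.5 FPKM in controls, with no overlap (-1.07, SE 0.27). KYNU averaged 12.4 FPKM in MDA-MB-468 and 0.190 FPKM in BT20 controls, a log2 difference of 3.50 (SE 0.24, limma, adjusted p = 2.89e-06). It passed the filter in the fit of controls only through the other lines, since it was under 1 FPKM in BT20 controls. QPRT, which makes the NAD precursor of this route, was at most 0.0481 FPKM in MDA-MB-231 controls, against 52.1 to 77.1 FPKM in MDA-MB-468 controls. BT20 controls held 60.9 to 78.5 FPKM of it.

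Of 17 other AHR-inducible genes, 8 were tested in MDA-MB-231 cells, 8 in MDA-MB-468 cells and 9 in BT20 cells. ALDH3A1, an aldehyde dehydrogenase of the AHR battery, was at 1.10, 2.47 and 1.07 FPKM in NAM-treated and 4.71, 6.56 and 6.46 FPKM in control BT20 cells. No NAM library reached a control, and ALDH3A1 fell by 1.5 (SE 0.23, limma, adjusted p = 0.00596, and 0.0509 with no filter). In MDA-MB-468 cells it was at 0.842, 1.93 and 1.72 FPKM with NAM and 7.50, 17.6 and 12.2 FPKM in controls (-2.40, SE 0.31). In MDA-MB-231 cells it was below the filter, with 7 reads with NAM and 9 in controls. AREG, an EGF receptor ligand, was at 160, 104 and 104 FPKM in NAM-treated and 61.1, 46.4 and 46.0 FPKM in control MDA-MB-231 cells and rose by 1.23 (SE 0.15, adjusted p = 0.0201). That call was lost as deposited (0.0579), under median scaling (0.119), by limma-voom (0.0522) and without MDA-MB-231 control replicate 2 or 3 (0.181 and 0.185) or NAM replicate 2 or 3 (0.0952 and 0.169). In MDA-MB-468 cells AREG was at 14.4, 13.7 and 14.2 FPKM with NAM and 2.29, 1.96 and 2.65 FPKM in controls. Thus ALDH3A1 was lower and AREG higher with NAM, although both are in the list as genes that AHR can induce. SLC7A5, an amino acid transporter that carries tryptophan and kynurenine, was at 322, 124 and 278 FPKM in NAM-treated and 94.0, 98.5 and 97.9 FPKM in control BT20 cells. It rose by 1.26 (SE 0.35, adjusted p = 0.0382) and lost the call without each BT20 library but NAM replicate 2 (0.0791 to 0.161), with no filter (0.184) and with a pseudocount of 0.1 (0.0586). With the replicate block SLC7A5 fell by 0.70 in MDA-MB-231 cells (adjusted p = 0.0215). IL1B, a cytokine gene, was at 2.54, 0.970 and 1.05 FPKM in NAM-treated and 3.03, 12.3 and 11.5 FPKM in control MDA-MB-231 cells. It did not pass the test over all libraries of the line, and without both replicate 1 libraries it fell by 2.74 (adjusted p = 0.000746). The medians of the list were -0.03, -0.29 and -0.06 in MDA-MB-231, MDA-MB-468 and BT20 cells. UGT1A1 and UGT1A6 share exons, so their values are uncertain.

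NRF2 targets were listed because NQO1 belongs to them as well. Of 12, 10 were tested in MDA-MB-231 cells and 0 were called (limma, and 4 at an unadjusted p under 0.05 and 0 by limma-voom). Of all 13869 genes tested there, 1.92% were called and 2719 had an unadjusted p under 0.05. PGD, phosphogluconate dehydrogenase, was at 64.5, 63.5 and 70.9 FPKM with NAM and 35.7, 38.6 and 40.8 FPKM in MDA-MB-231 controls. These groups did not overlap, and the log2 difference was 0.79 (SE 0.19, adjusted p = 0.0844). With the replicate block 3 rose: PGD (0.79), TXNRD1 (0.62) and OSGIN1 (1.01), beside 15.9% of all genes called in that fit. In BT20 cells 3 of 11 rose, the glutamate-cysteine ligase subunit GCLM (0.82, SE 0.15, adjusted p = 0.00911), thioredoxin reductase TXNRD1 (1.15, SE 0.17, adjusted p = 0.00577) and the cystine transporter SLC7A11 (1.80, SE 0.16, adjusted p = 0.00137). Of all genes in BT20 cells, 7.12% were called higher. SLC7A11 was at 10.5, 12.2 and 14.4 FPKM with NAM and 2.36, 2.91 and 3.04 FPKM in BT20 controls, with no overlap. GCLM lost its call without BT20 control replicate 2 or 3 (0.0571 and 0.0534). In MDA-MB-468 cells AKR1C1 was at 33.9, 28.6 and 28.4 FPKM with NAM and 48.5, 45.3 and 51.2 FPKM in controls. The list's medians were 0.42, -0.15 and 0.29 in MDA-MB-231, MDA-MB-468 and BT20 cells, so the list was above the median of all genes in the lines where NQO1 did not pass the test. Between controls, AKR1B10, an aldo-keto reductase, ranged over 0.598 to 0.743 FPKM for MDA-MB-231, over 1.11 to 1.42 FPKM for MDA-MB-468 and over 450 to 531 FPKM for BT20, so BT20 controls were highest. The list did not follow 1 order, since AKR1C1 was at 45.3 to 51.2 FPKM in MDA-MB-468 controls and at most 1.11 FPKM in the controls of the other 2 lines. SLC7A11 had its highest control mean in MDA-MB-231 cells, at 12.3 ± 6.95 FPKM (SD, n = 3).

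**Figure D5:**
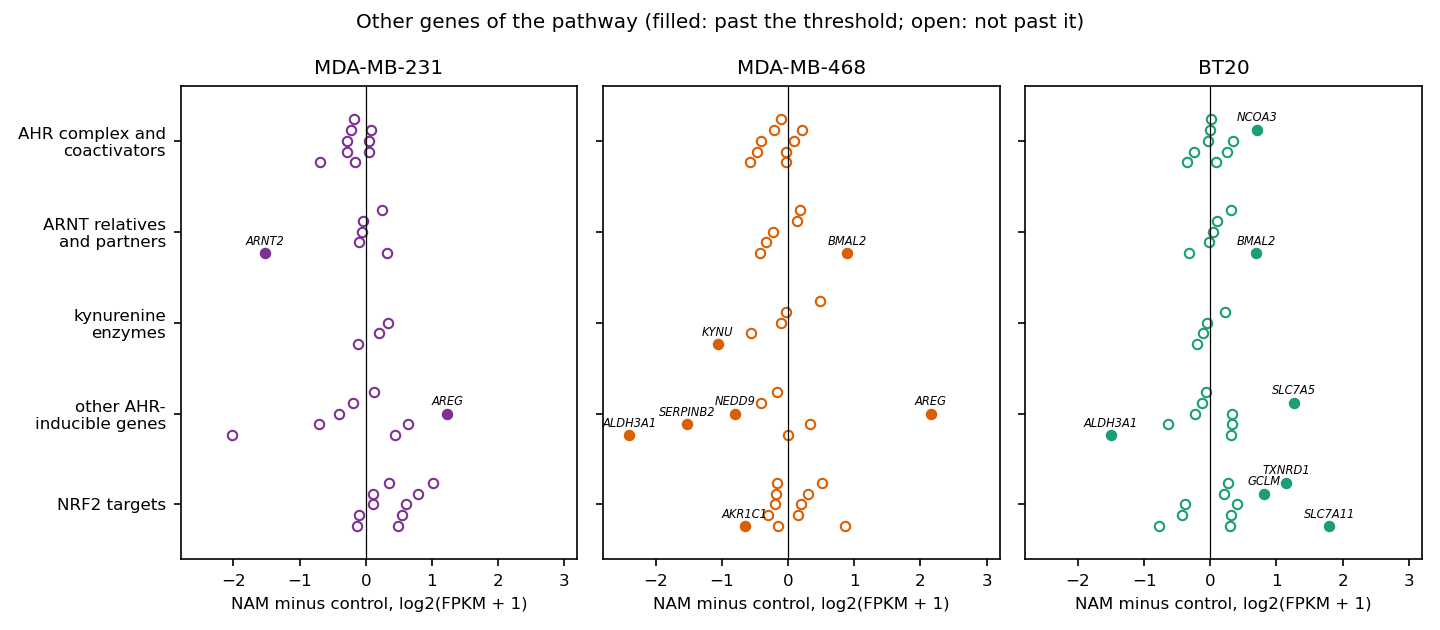
Points give NAM minus control on quantile-normalised log2(FPKM + 1) (x axis) for each tested gene of 5 lists (y axis), with a panel for each line, filled where a gene was past both thresholds and open otherwise. Among the filled points of the other AHR-inducible genes, ALDH3A1 lies at -2.40 in MDA-MB-468 and -1.5 in BT20 cells, and AREG at 1.23 in MDA-MB-231 and 2.16 in MDA-MB-468 cells.

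Across the 18 libraries, which fall into 6 groups, the genes whose log2(FPKM + 1) profile was most like that of CYP1A1 among 17784 genes were LINC02188 (Pearson r = 0.977), VNN2 (0.969), PSTPIP2 (0.967), RTP4 (0.961) and CAPNS2 (0.959). All 5 were highest in MDA-MB-468 controls, with means between 2.16 and 4.55 FPKM, against at most 0.664 FPKM in NAM-treated MDA-MB-468 cells. Most like CYP1B1 were NEMP2 (0.900), BZW2 (0.898), STARD13 (0.897), OLR1 (0.890) and CASP1 (0.889). BZW2 averaged 23.6 ± 2.43 FPKM in NAM-treated and 64.8 ± 5.96 FPKM in control MDA-MB-468 cells, 15.1 ± 0.593 and 33.5 ± 5.03 in NAM-treated and control MDA-MB-231 cells, and 14.5 ± 5.25 and 25.3 ± 1.13 in NAM-treated and control BT20 cells (SD, n = 3 each). The libraries of a line share its genotype and medium, so these likenesses are descriptions.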

How the data were processed

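Total RNA of 18 libraries was sequenced, and per the labels the authors used cutadapt 2.8 for trimming, TopHat2 2.1.1 for alignment (build GRCh38.p13) and HTSeq 0.11.3 for gene counting. The deposited unit is FPKM, which the authors computed with Ensembl release 99 gene lengths. The labels name a stranded total RNA kit and the study's methods an RNA library kit, and the strand setting of the counting is not given in the sources used here.

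Of 60676 genes, 60357 identifiers were matched to symbols. FPKM values were turned into log2(FPKM + 1), genes with at least 1 FPKM in at least 3 of the libraries fitted were kept, and values were quantile-normalised. Each line was fitted alone for NAM against control, the 9 controls were fitted together, and all 18 libraries were fitted for the difference of NAM effects, with limma 3.58.1 in R 4.3.3 (trend and robust off, Benjamini-Hochberg adjustment over all genes). A call is an adjusted p under 0.05 with a log2 difference beyond 0.58. The scripts were tested on simulated data with 200 changed genes. Whole reads were recovered from the FPKM values of 32259 of 39935 genes above 0 (within 0.01 reads in every library, with GENCODE release 44 lengths) for limma-voom, read ratios and depth. Intervals were exact at 95%.

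The members and lists were chosen with earlier results of these data known, and some list genes are not reported here. Genes named from a list are those called in a tested contrast, at most 3 per direction and contrast by size, beside the 5 genes most like CYP1A1 and the 5 most like CYP1B1. Exceptions chosen after their values were seen are IDO1, TDO2, OSGIN1 and the overlapping antisense genes. Same-numbered NAM and control libraries deviated together in MDA-MB-231 (r = 0.74, 0.62 and 0.72) and MDA-MB-468 cells (0.71, 0.61 and 0.13) but not in BT20 cells (0.02, -0.08 and 0.10), so the numbers were taken as pairs in the first 2 lines. NAM replicate 3 with control replicate 2, and NAM 2 with control 3, gave 0.69 and 0.45 in MDA-MB-231 cells. In MDA-MB-468 cells they gave 0.32 and 0.44. The values thus set replicate 1 apart and do not show that replicates 2 and 3 are pairs, a limit on every result by pair or replicate block. Alternatives were the pseudocount, the filter, the normalization, the replicate block and leaving out each library, and, chosen after seeing the data, limma-voom and leaving out both replicate 1 libraries of a line.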

Additional observations from a re-analysis of the deposited data

Results flagged for a closer look

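Groups of 3 libraries were too small for a test of single outlying libraries. The NAM effect in MDA-MB-231 minus that in BT20 cells was tested in the limma interaction over 18 libraries, on the log2(FPKM + 1) scale. Of all 17784 genes, 5.32% were called. Tested here were 6 members and 9, 7, 5, 13 and 12 genes of the 5 lists. Those that passed were CYP1A1 by -1.20 (adjusted p = 0.0278), ARNT2 by -1.36 (adjusted p = 0.000117), ALDH3A1 by 1.46 (adjusted p = 0.0398), SLC7A5 by -2.0 (adjusted p = 0.0408), IL1B by -1.82 (adjusted p = 0.0251) and PGD by 1.19 (adjusted p = 0.0150). CYP1A1 passed the filter only through the other lines, and nothing is read from the number of calls. The call was lost in 6 of the 18 fits that left out 1 library for CYP1A1, in 12 for ALDH3A1, in 12 for SLC7A5 and in 8 for IL1B, and in none for PGD or ARNT2. CYP1A1 also lost it with a pseudocount of 0.1 or 0.5 and by limma-voom (-0.38, adjusted p = 0.831). ALDH3A1 lost it with a pseudocount of 0.1 (adjusted p = 0.129), no filter (0.0552), median scaling (0.0669) and limma-voom (0.283), and SLC7A5 with a pseudocount of 0.1 (0.0551) and no filter (0.0819). ARNT2 and IL1B were near 0 in both groups of BT20 cells, with 3 and 0 reads in NAM-treated and 35 and 4 reads in control BT20 cells, and ALDH3A1 was near 0 in MDA-MB-231 cells, with 7 reads with NAM and 9 in controls. CYP1A1 was low in BT20 cells as well, with 21 reads with NAM and 147 in controls. The differences of these genes on the log2(FPKM + 1) scale are therefore bounded by the low level in 1 line. On the read scale of limma-voom the ARNT2 difference was 1.73, opposite in sign (adjusted p = 0.117), and the IL1B difference -0.90 (adjusted p = 0.737), so nothing is read from the ARNT2 call. PGD kept its call under all 8 other alternatives.

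Every numbered pair went one way in MDA-MB-231 cells and the other way in MDA-MB-468 cells for 2 members. The NAM effect in MDA-MB-231 minus that in MDA-MB-468 cells was -1.09 for TIPARP, which was lower with NAM in 3 of 3 pairs in MDA-MB-231 and higher in 3 of 3 in MDA-MB-468 cells, and -0.75 for NQO1, with the same directions. These 2 differences were not tested.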

How the results depend on the processing

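Of 339 settings of the members' values other than leaving out 1 library, 327 counted as the same, 4 lost the call, 2 gained it and 6 moved by more than the replicate spread. A tested value counted as the same if its call was unchanged, even where the sign of an uncalled value changed. In contrasts given without p, calls were not compared, and a value was the same if it moved by less than the replicate spread. Calls gained in MDA-MB-468 cells with NAM, given below, are thus not in these counts. Without 1 library, 349 of 369 were the same by these rules, 18 lost the call, 1 gained it and 1 moved. For the listed genes the same counts were 725 of 771 and 775 of 843, and 1 reversed: the difference of the ARNT2 effect between MDA-MB-231 and BT20 cells became 1.73 by limma-voom.

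Genes called by limma in MDA-MB-231 cells numbered 266, against 426 with no filter, 164 under median scaling, 2202 with the replicate block, 1814 without both replicate 1 libraries, and 0 to 259 without 1 library. The count was 126 without control replicate 1. It was 0 once NAM replicate 2, NAM replicate 3, control replicate 2 or control replicate 3 was left out, and then 2688, 1667, 1468 and 1490 genes had an unadjusted p under 0.05. Limma-voom called 226. Members called there, CYP1A1 included, ranged from 0 to 2 without 1 library. In MDA-MB-468 cells 1308 genes were called, 2264 with the replicate block, 2229 without both replicate 1 libraries and 258 to 1506 without 1 library. Members past the thresholds there were 1, against 2 as deposited or under median scaling, 4 with the replicate block, 3 by limma-voom or without both replicate 1 libraries, and 1 to 2 without 1 library. In BT20 cells 2282 genes were called, 845 with no filter and 584 to 3128 without 1 library. For the difference of effects between MDA-MB-231 and BT20 cells 946 genes were called, 540 by limma-voom and 456 to 1243 without 1 library. Its member called, CYP1A1, was lost (0 called) with a pseudocount of 0.1 or 0.5 and by limma-voom (1, 2 and 0 members with an unadjusted p under 0.05), and members called were 0 to 1 without 1 library. The cause of these changes was not tested. The replicate block changed no call of a member other than those given with the results. Between controls, 7666, 8239 and 7638 genes were called, and every alternative stayed within 1.5 times these counts. AHRR and CYP1A2, with 102 and 22 reads, are limited by depth.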
